A study of Rattus norvegicus with 36 samples.

Results

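Type I interferon response genes are transcribed when cells detect type I interferons, and 9 of them were described here in the hippocampus of female rats: Irf7, Irf9, Stat2, Isg15, Ifit2, Ifit3, Mx1, Mx2 and Oasl. They were taken by symbol from a deposited table of 20603 genes, and all 9 were found there. The labels describe 36 female rats in 6 groups of 6 animals, whose frozen hippocampus gave total RNA for sequencing. Group Reg6m was sampled at 6 months of age. At 9 months, animals with a normal cycle (Reg9m), with an irregular cycle (Irreg9m) and without a cycle (Acyc9m) were sampled. Group RegOVX10m lost its ovaries at 9 months and was sampled at 10 months. Group Acyc16m had no cycle and was sampled at 16 months. The labels name no strain, genotype or drug treatment.

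The 36 columns of the table name the hippocampus and a running number, and no animal, age or cycle status. That they hold the 36 labelled animals rests on the tissue name and the equal number alone. The libraries were therefore described as 1 ungrouped set, under their numbers in the table, with no comparison between ages or cycle groups and no test. Every correlation below mixes differences between the 6 groups with differences within them, and these cannot be told apart here.

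In the type I interferon pathway, secreted interferons bind the receptor chains Ifnar1 and Ifnar2, and the kinases Jak1 and Tyk2 then phosphorylate Stat2. Stat2 and Irf9 act together in the complex ISGF3, which binds interferon-stimulated response elements in the promoters of its targets. Among these targets are genes for antiviral proteins and Irf7, a transcription factor that drives further interferon transcription. In the brain, microglia, astrocytes, endothelial cells and neurons can all respond to interferon.

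The promoters of 6 of the 9 genes, Irf7, Irf9, Stat2, Ifit3, Mx1 and Oasl, matched RefSeq promoter sequences on the rat build GRCr8. Isg15, Ifit2 and Mx2 are named only. Each sequence runs from 250 bases before to 50 bases after the annotated gene start. It was searched for GAAANNGAAA, the repeated GAAA core of the interferon-stimulated response element, on both strands and with overlaps allowed. The motif was present in 2 of the 6 promoters, against 1312 of 33469 RefSeq rat promoters of the same length (3.92%). In a list of other interferon-stimulated genes, 28 of the 48 matched promoters held it (58.3%). The 3 sequences shown are those of Irf7 and Ifit3, which hold the motif, and of Mx1, which does not. Capitals mark the motif, which is read as its reverse complement in both cases. It starts at base -69 in Irf7 and at base -44 in Ifit3, counted from the gene start. The Irf7 sequence is from chr1:205799974-205800273 on the minus strand, that of Ifit3 from chr1:241527076-241527375 on the plus strand, and that of Mx1 from chr11:50294557-50294856 on the minus strand.
Irf7: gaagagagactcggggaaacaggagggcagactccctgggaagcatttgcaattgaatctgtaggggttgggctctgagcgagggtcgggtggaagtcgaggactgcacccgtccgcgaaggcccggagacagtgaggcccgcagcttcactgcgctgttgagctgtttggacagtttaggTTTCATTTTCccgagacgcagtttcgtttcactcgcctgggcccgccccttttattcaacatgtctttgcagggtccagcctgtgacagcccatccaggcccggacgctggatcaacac
Ifit3: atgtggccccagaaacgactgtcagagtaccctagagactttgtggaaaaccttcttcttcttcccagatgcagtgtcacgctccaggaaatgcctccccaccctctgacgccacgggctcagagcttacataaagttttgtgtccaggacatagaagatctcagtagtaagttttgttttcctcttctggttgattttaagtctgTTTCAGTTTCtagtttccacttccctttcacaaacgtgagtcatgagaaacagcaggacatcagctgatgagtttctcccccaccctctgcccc
Mx1: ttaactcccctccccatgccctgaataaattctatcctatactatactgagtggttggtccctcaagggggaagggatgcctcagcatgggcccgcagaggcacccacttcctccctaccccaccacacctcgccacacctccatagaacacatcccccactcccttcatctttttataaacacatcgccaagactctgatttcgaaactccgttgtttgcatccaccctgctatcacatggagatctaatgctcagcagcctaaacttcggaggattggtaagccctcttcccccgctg

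The promoters of Irf9, Stat2 and Oasl hold no match either. A link between the motif and the correlations below was not tested. A match describes these letters only, and the lack of one says nothing about factor binding elsewhere at the gene.

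The transcription factors of the group differed in how much they varied. Values are normalized counts as deposited, and they are not per length, so a difference in level between genes is not read as a difference in expression. Irf7, which induces interferon genes, ranged from 83.1 in library 21 to 254 in library 11 around a median of 127, a 3.06-fold span. The 4 libraries that followed library 11 (10, 28, 24 and 4) held 215, 214, 203 and 202. On the log2(value + 1) scale the interquartile range of Irf7 was 0.60, and 96.7% of the 15837 genes with a median of at least 10 varied less. Genes with a like normalized count, within 0.5 log2 units of the median, are a closer yardstick, and 98.2% of these varied less than Irf7.

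Irf9, the DNA-binding subunit of ISGF3, ranged from 532 in library 5 to 825 in library 11 around a median of 668, a 1.55-fold span. Its interquartile range of 0.29 exceeded that of 96.3% of genes of like level. Stat2, the subunit of ISGF3 that is particular to interferon signalling, lay between 1451 in library 4 and 1758 in library 34, with a median of 1579.9. Its span of 1.21-fold was the narrowest of the 9 genes, and its interquartile range of 0.10 lay near the middle of the genes of like level, of which 47.7% varied less. So Irf7 was among the more variable genes of the hippocampus at its level, and Stat2 was not.

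Among the effectors, Isg15 encodes a ubiquitin-like protein that is attached to other proteins. It ranged from 37.2 in library 21 to 85.9 in library 4 around a median of 54.8. Oasl encodes a relative of the 2'-5'-oligoadenylate synthetases; its human counterpart lacks their enzyme activity and promotes RNA sensing. It ranged from 23.5 in library 30 to 64.7 in library 9 around a median of 41.7. Both varied more than most genes of the table, with interquartile ranges of 0.42 and 0.43. The spread of a gene also depends on the size of its counts: 77.1% of genes of like level varied less than Isg15, and 70.0% varied less than Oasl.

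Ifit2 and Ifit3 encode proteins with tetratricopeptide repeats that restrict viral translation and replication. They lie next to each other in the RefSeq annotation, with 0 protein-coding genes between them. Their spread differed. Ifit3 ranged from 159 in library 2 to 253 in library 29 around a median of 212, with an interquartile range of 0.26. Ifit2 ranged from 259 in library 3 to 395 in library 29 around a median of 314, with an interquartile range of 0.13. Of genes of like level, 77.4% varied less than Ifit3, against 20.1% for Ifit2. Library 29 was the highest for both. Ifit2 and Ifit3 are related in sequence, so reads could be split between them, and how their reads were assigned is uncertain.

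Mx1 and Mx2 encode dynamin-like GTPases that block virus replication; in rodents the Mx1 protein is nuclear and the Mx2 protein is cytoplasmic. Mx1 ranged from 72.3 in library 17 to 438 in library 2 around a median of 298. Its 6.06-fold span was the widest of the 9 genes. The next lowest libraries, 20, 9, 32 and 23, held 125, 131, 140 and 145, so the low end was not library 17 alone. Its interquartile range of 0.63 exceeded that of 99.3% of genes of like level. Mx2 ranged from 578 in library 34 to 1155 in library 25 around a median of 796, and 98.9% of genes of like level varied less. Mx1 and Mx2 are close relatives with 1 protein-coding gene between them, and reads could be split between them too.

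No library had a value of 0 for any of the 9 genes. In 7 of the 9, all but Stat2 and Ifit2, the interquartile range exceeded that of 75% of all genes. The median interquartile range over all 15837 genes was 0.146. Against genes of like level, 4 exceeded 95%: Irf7, Irf9, Mx1 and Mx2. In whole tissue, fewer cells of a type and less RNA per cell cannot be told apart.

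**Figure D1:**
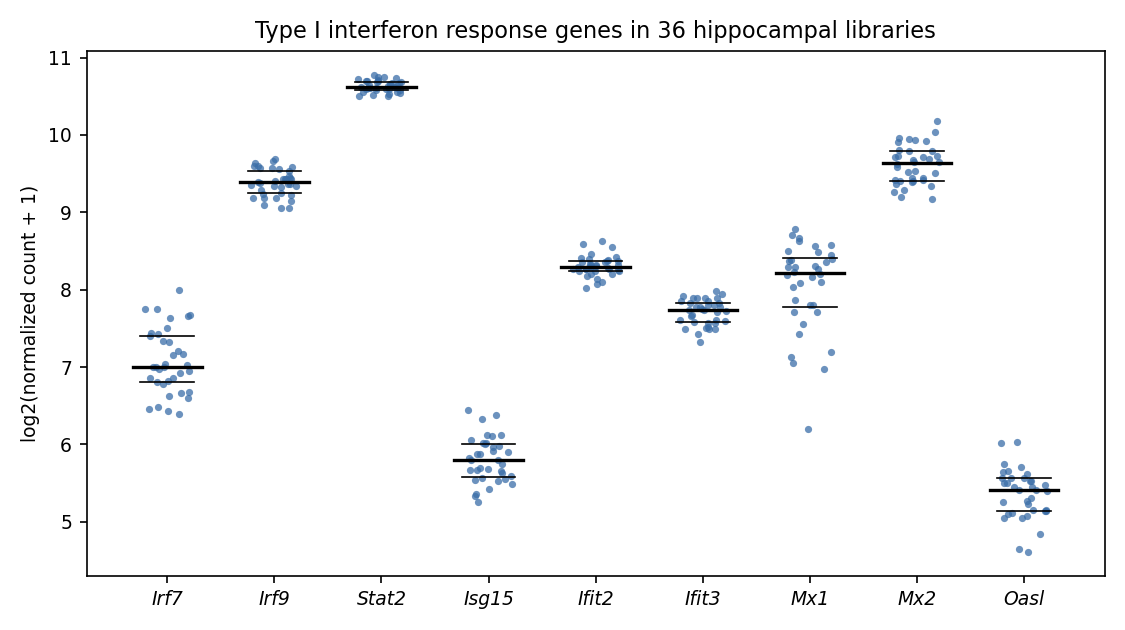
Level of each of the 9 interferon response genes in 36 hippocampal libraries. The y axis is log2(normalized count + 1), each point is 1 library, thick lines are medians and thin lines are quartiles. Heights are not comparable between genes, since the values are not per length; Stat2 has the tightest points and Mx1 the widest, from 72.3 to 438 normalized counts.

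The values summed to between 34455978 and 35985904 normalized counts per library. Libraries 16, 17 and 30 had the lowest median correlation with the other libraries; it was 0.989 in library 30, against a median of 0.991 over all libraries. Library 30 also had the highest share of genes at 0, 12.7%, against a median of 9.75%. The lowest Oasl value came from library 30 and the lowest Mx1 value from library 17. Hippocampal and neural markers were present in every library: Prox1, a dentate granule cell transcription factor, ranged from 3301 to 5722. The choroid plexus gene Ttr, which marks carried-over tissue, ranged from 4.59 to 1699, and its correlation with Irf7 was 0.28.

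The median library was above the gene's own median for 5 of the 9 genes. It was among the 6 highest libraries for 1 gene and among the 6 lowest for 1. How often unrelated genes would be high or low together was not computed. Library 28 was above the median of every gene, and library 14 above none. Library 11 was among the 6 highest libraries for 5 of the genes, with the highest Irf7 and Irf9 and the second highest Isg15 (82.5), and it held 171 of Mx1, below the Mx1 median of 298. At the other end, libraries 5, 14 and 21 were each among the 6 lowest for 5 genes. Library 21 was lowest for Irf7 and Isg15, while its Mx1 was 359, above that median. Library 17, lowest for Mx1, held 168 of Irf7, above the Irf7 median of 127. High Irf7 and high Mx1 thus fell in different libraries in several cases.

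**Figure D2:**
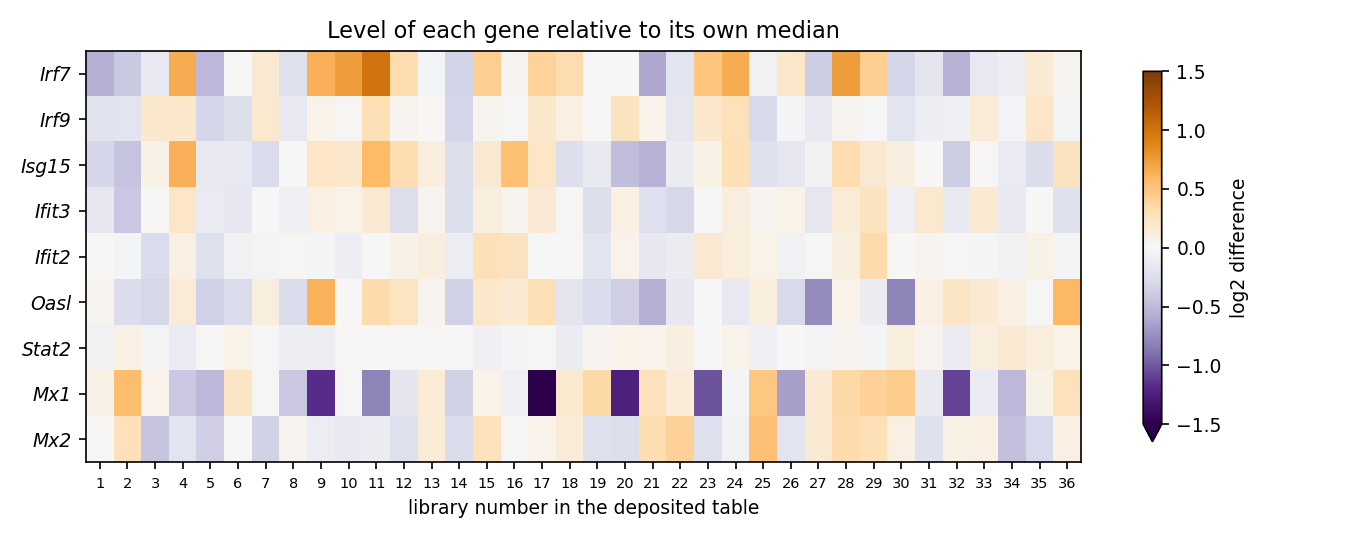
Each cell is the log2(normalized count + 1) of 1 gene in 1 library minus the median of that gene over the 36 libraries; columns are library numbers in the deposited table, and the colour scale ends above the lowest Mx1 value. Library 11 is high for Irf7, Irf9 and Isg15 and low for Mx1, and the darkest cells are those of Mx1 in libraries 9, 17, 20, 23 and 32.

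Across the 36 libraries, 6 of the genes were positively correlated with each other, and Stat2, Mx1 and Mx2 were mostly not correlated with them. Of the 36 pairs among the 9 genes, 5 reached a Pearson r of 0.5 on the log2(value + 1) scale. For any of the 9 with any of the other 15828 genes, 0.866% of pairs did so. The 5 pairs were Irf7 with Isg15, Irf7 with Irf9, Irf7 with Ifit3, Irf9 with Ifit3 and Isg15 with Ifit3. Without libraries 16, 17 and 30 the count was 8. Over all 36 pairs the median r was 0.12, and over all pairs with other genes it was -0.00052.

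Irf7 and Isg15 had the highest r, 0.69 (Spearman's rho 0.65; r 0.64 without the 2 libraries farthest from the Irf7 median, 11 and 10). They lie on different chromosomes. Irf7 with Irf9 gave r 0.64 (rho 0.66; 0.61 without those libraries). Irf7 with Ifit3 gave r 0.64 (rho 0.64; 0.62 without them). Irf7 was thus in 3 of the 5 pairs, and each of the 3 stayed above 0.5 without its 2 highest libraries. Irf9 with Ifit3 gave r 0.55 (rho 0.55; 0.51 without libraries 5 and 14), and Isg15 with Ifit3 gave r 0.51 (rho 0.50; 0.43 without libraries 4 and 11).

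Ifit2 and Oasl were in none of the 5 pairs. Ifit2 had r 0.49 with its neighbour Ifit3 (rho 0.49; 0.39 without libraries 29 and 15), 0.42 with Irf7 (rho 0.44; 0.53 without libraries 11 and 10) and 0.22 with Irf9. The Ifit2 value with Irf9 rested partly on libraries 5 and 14, without which it was 0.088. Oasl had r 0.49 with Irf7 (rho 0.46; 0.47 without libraries 11 and 10) and 0.46 with Isg15. Among these 6 genes, Irf7, Irf9, Isg15, Ifit2, Ifit3 and Oasl, all 15 pairs were positive, with a median r of 0.46 and a range of 0.22 to 0.69. The division into 6 and 3 was made after the correlations were seen, so these counts describe it and do not support it.

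Of the 18 pairs between Stat2, Mx1 or Mx2 and these 6 genes, 16 were negative, with a median r of -0.18. The count was 13 with Spearman's rho. It was 15 without the 2 libraries farthest from the median of the pair's first gene, in the order of the opening list. For Irf7 with Mx1 these were libraries 11 and 10, so the lowest Mx1 libraries, 17 and 20, stayed in. The lowest was Irf9 with Mx1, at -0.36 (rho -0.33; -0.47 without libraries 5 and 14). Mx1 with Irf7 gave -0.22 (rho -0.19). The exceptions above 0 were Ifit2 with Mx2, 0.34 (rho 0.28; 0.21 without libraries 29 and 15), and Ifit2 with Mx1, 0.019 (-0.11 without libraries 29 and 15). Most of these values were weak, and over 36 libraries a weak r is a description only.

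Within the 3, Mx1 and Mx2 gave r 0.40 (rho 0.57; 0.49 without libraries 17 and 20). Stat2 gave 0.25 with Mx1 (rho 0.22) and -0.090 with Mx2. Stat2 and Irf9 are subunits of 1 complex, and their messages gave r -0.035 (rho -0.035).

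**Figure D3:**
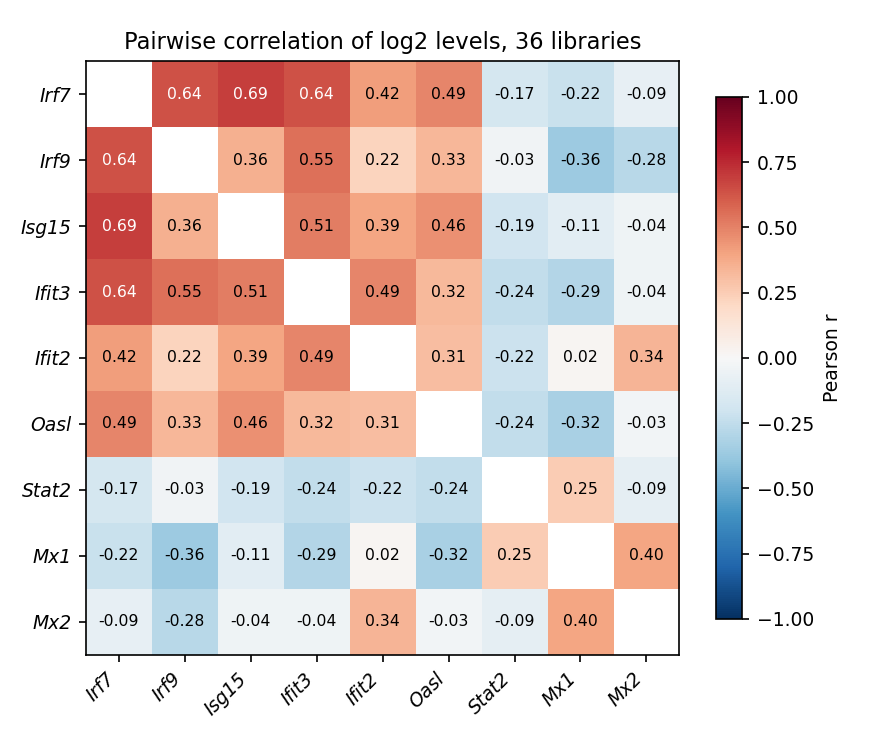
Pearson r of log2(normalized count + 1) over 36 libraries for each pair of the 9 genes. The block of Irf7, Irf9, Isg15, Ifit3, Ifit2 and Oasl at upper left is positive throughout, from 0.22 to 0.69, while Stat2, Mx1 and Mx2 hold mostly negative values with it.

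A wider list of interferon-stimulated genes was correlated with the 9 genes to different degrees. Of 72 symbols listed, 63 were in the table and 58 had a median of at least 10. Of these 58, 51 had a positive median r with the 9 genes, as had 49.2% of all other genes. With Irf7, 24 of the 58 reached r 0.5, where 0.588% of all other genes did. With Isg15, 14 did, against 0.385% of all genes. With Ifit3, 9 did, against 0.196%. For Ifit2 the number was 8 against 0.676%, and for Irf9 it was 7 against 0.695%. For Oasl it was 4 against 0.303%.

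For Stat2, Mx1 and Mx2 the counts were near 0, which is close to the share of all other genes. Stat2 had 1 of the 58 at r 0.5, where 1.45% of all other genes reached it. Mx2 had 0 of 58 beside 0.644%. Mx1 had 0 of 58 beside 2.86%, although 452 other genes reached r 0.5 with it, more than with any of the other 8. The median r of the 58 genes was 0.43 with Irf7, 0.38 with Isg15, 0.36 with Ifit2, 0.33 with Ifit3, 0.31 with Oasl and 0.30 with Irf9. It was 0.058 with Mx2, -0.11 with Stat2 and -0.19 with Mx1. Among the 58 themselves, 313 of 1653 pairs reached r 0.5 (18.9%) and the median r was 0.23. Over all pairs of genes outside the 9, 2.53% reached r 0.5.

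**Figure D4:**
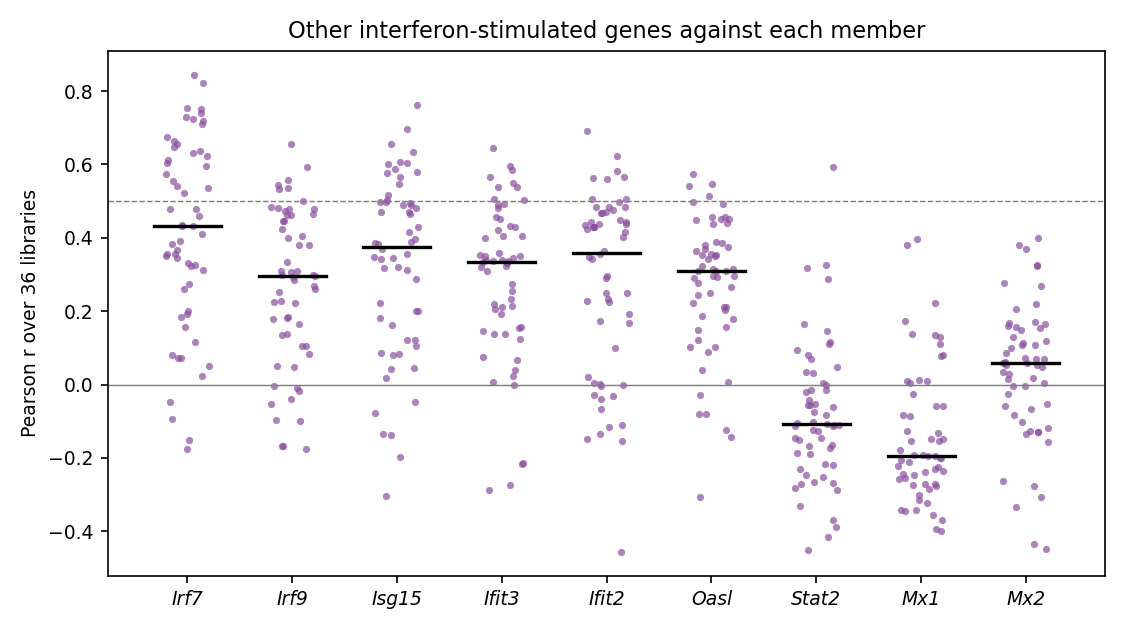
Pearson r over 36 libraries of 58 other interferon-stimulated genes (points) with each of the 9 genes (x axis); thick lines are medians and the dashed line is r 0.5. With Irf7 the points reach 0.84 and 24 lie at or above the dashed line, and with Mx1 the median is -0.19 and none does.

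The genes of the wider list with the highest median r were Usp18, Ifi44, Oas1a, Slfn2, Uba7, Rsad2, Ifitm3, Sp110, Lgals9 and Parp14, from 0.57 down to 0.42. Usp18 removes Isg15 from proteins and restrains signalling at the interferon receptor. It ranged from 49.3 to 126 around a median of 78.7 and had r 0.82 with Irf7 (rho 0.84; 0.83 without libraries 11 and 10). Oas1a, an enzyme that activates RNase L when it meets double-stranded RNA, ranged from 17.1 to 71.9 around a median of 40.3. Its r with Irf7 was 0.84 (rho 0.86). Slfn2, a schlafen protein of immune cells, ranged from 186 to 337 and had its highest r with Isg15, 0.76 (rho 0.71).

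Rsad2 encodes viperin, which blocks replication of many viruses, and ranged from 35.2 to 104 around a median of 63.6. Its r was 0.68 with Irf7 and 0.60 with Ifit3. Ifitm3, which blocks virus entry at membranes, ranged from 72.2 to 147 and gave r 0.57 with Irf7. Ifi44, Sp110, Lgals9 and Parp14 had r with Irf7 of 0.75, 0.63, 0.66 and 0.64. With Mx1 all 10 had a negative r, among them Rsad2 at -0.39 and Usp18 at -0.27. The 10 were picked by their median r with the members, Mx1 included, so these values describe the ranking.

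Upstream of these genes, the interferons were barely present. Of 12 ligand symbols 8 were in the table, and 6 of these had a median of 0. The summed level of the 8 was 0 to 13.3 normalized counts per library, with a median of 4.62. Ifnb1, the interferon made first by many cells, was at 0 in 26 of 36 libraries and reached 1.07 at most. Values this low give no usable correlation.

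The receptor chains and kinases were present in every library. All 7 had a median of at least 10. Ifnar1 lay between 2352 and 2639.6 around a median of 2454, and Ifnar2 lay between 305 and 411. Jak1 ranged from 6363 to 7518, and Tyk2 from 908 to 1183. The type II receptor chains Ifngr1 and Ifngr2 had medians of 1345 and 1619, and Jak2, a kinase they use, had a median of 1719.9. None of the 7 reached r 0.5 with Irf7, where 0.588% of all other genes did, and the highest was Ifnar1 at 0.39. The single value at r 0.5 in this list was Jak1 with Stat2, 0.56. Of all other genes, 1.45% reached r 0.5 with Stat2.

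Other transcription factors of the pathway were measured too. Irf1, an early factor of the interferon gamma response, had r 0.51 with Oasl, where 0.303% of all other genes reached r 0.5. Its r with Irf7 was 0.36, and its median r with the 9 genes was 0.087. Stat3, Irf2, Irf5 and Irf8 had r with Irf7 of 0.091, 0.098, 0.13 and 0.18. Irf3, which starts interferon transcription after RNA or DNA is sensed, had r 0.31 with Irf7.

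Interferon is known to induce the RNA sensors of the pathway. These sensors, Ddx58 (RIG-I), Ifih1 (MDA5) and Dhx58 (LGP2), had medians of 86.6, 156 and 117. Their r with Irf7 was 0.48, 0.46 and 0.74. Dhx58 reached r 0.5 with 4 of the 9 genes: Irf7, Irf9 (0.59), Ifit3 (0.58) and Isg15 (0.52). The adaptor Mavs, through which RIG-I and MDA5 signal, had a median of 451 and r -0.30 with Irf7. Mb21d1, the DNA sensor cGAS, was low, from 1.77 to 13.4, and its adaptor Tmem173 (STING) had a median of 101 and r 0.38 with Irf7. The toll-like receptors Tlr3, Tlr7 and Tlr9 had medians of 165, 174 and 39.5, and r with Irf7 of -0.058, 0.0087 and 0.24. The kinases Tbk1 and Ikbke and the adaptor Myd88 had r with Irf7 of -0.18, -0.046 and 0.18.

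The genes of the enzymes that attach and remove Isg15 were positively correlated with it. Of 5 symbols 4 were in the table, and all 4 reached r 0.5 with Irf7, where 0.588% of all other genes did. These 4 are also in the wider list and were counted with it above. Uba7, the activating enzyme, ranged from 74.6 to 175 with r 0.59 with Isg15 and 0.71 with Irf7. Ube2l6, the conjugating enzyme, ranged from 50.5 to 91.6 with r 0.40 with Isg15 and 0.62 with Irf7. Herc6, the ligase in mice, ranged from 195 to 461 with r 0.47 with Isg15 and 0.60 with Irf7. With Mx1 all 4 were negative, between -0.27 and -0.086.

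Other negative regulators were weakly correlated with Irf7. Socs1 and Socs3, which block Jak kinases, had r 0.12 and 0.00040 with it. Ptpn11, a phosphatase, had r -0.64 with Mx1, and how far this rested on the lowest Mx1 libraries was not tested. Adar, which edits double-stranded RNA, had r 0.53 with Stat2 and -0.29 with Irf7. Of the 9 listed targets of interferon gamma, 6 had a median of at least 10. Of these, 1 reached r 0.5 with Irf7, where 0.588% of all other genes did: Irgm, an interferon-induced GTPase, at 0.80 (rho 0.80). Cd74, the MHC class II chaperone, ranged from 155 to 1751 and had r 0.078 with Irf7.

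Among all genes, the 20 with the highest median r with the 9 genes included 8 of the wider list, which makes up 0.366% of the genes ranked. All 20 reached r 0.5 with Irf7, 13 with Isg15, 13 with Ifit3 and 9 with Irf9. With Stat2, Mx1 and Mx2 the number was 0, and with Mx1 none of the 20 was positive. Since they were ranked on these same correlations, the counts describe the ranking. Besides Usp18, Ifi44, Oas1a, Slfn2, Uba7, Rsad2, Ifitm3 and Sp110 the 20 held the complement genes C4b and Cfb, the MHC class I gene RT1-T24-4, Apol9a, Hsh2d, Clec2g, Neu4, Slc25a13, Gfap, LOC100910979 and 2 transcripts with no gene name in the table. RT1-T24-4, which ranged from 645 to 1183, had the highest r with Irf7 of any gene with a median of at least 10, 0.87 (rho 0.90; 0.87 without libraries 11 and 10). RT1 genes are near-identical copies, so how their reads were assigned is uncertain. C4b, a complement component, ranged from 30.7 to 116 and had r 0.54 with Irf7. Cfb, a protease of the alternative complement pathway, ranged from 98.6 to 288 and had r 0.62 with Irf7.

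Gfap, the intermediate filament of astrocytes, was the only cell type marker among the 20, with a median r of 0.48. It ranged from 18059 to 32268, with r 0.61 with Ifit3 and 0.50 with Irf7. Its r with Mx1 was -0.57 (rho -0.49; -0.54 without libraries 17 and 20).

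**Figure D5:**
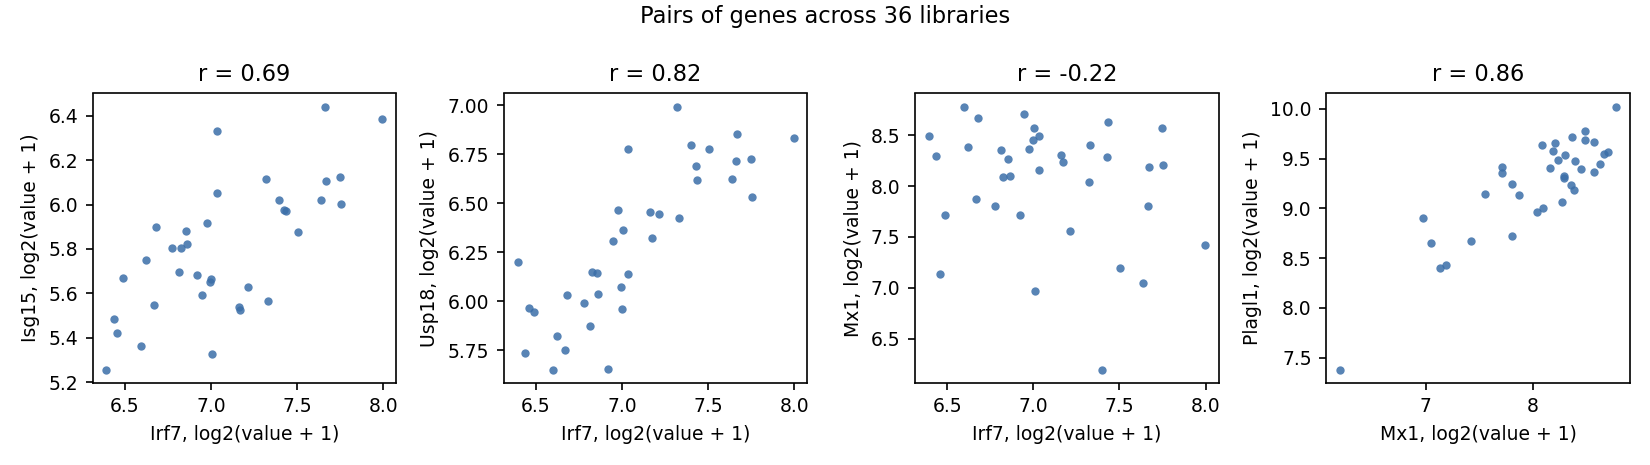
Levels of 4 pairs of genes, as log2(normalized count + 1), with 1 point per library and Pearson r over 36 libraries above each panel. Irf7 with Isg15 (0.69) and with Usp18 (0.82) follow a line, Irf7 with Mx1 (-0.22) does not, and Mx1 with Plagl1 (0.86) follows a line that includes the lowest Mx1 library.

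Mx1 moved with genes that are not on the interferon lists. The genes with the highest r with it, looked up after its low correlations with the other members were seen, were Plagl1, Tmem35, Cpne2, Nr2f2, Trhr and Nnat, from 0.86 to 0.82. Plagl1, an imprinted zinc finger transcription factor, gave r 0.86 (rho 0.74; 0.81 without libraries 17 and 20). Nr2f2, the nuclear receptor COUP-TFII found in some interneurons, gave r 0.82 (rho 0.68; 0.76 without them). Trhr, the receptor of thyrotropin-releasing hormone, gave r 0.82 (rho 0.73; 0.73 without them). Nnat, an imprinted membrane protein gene of neurons, gave r 0.82 (rho 0.68; 0.68 without them). The lowest r were with Mybpc2, -0.69, and Pou3f1, a transcription factor found in CA1 pyramidal neurons, -0.69 (rho -0.79; -0.74 without them). None of the 6 highest was on the wider interferon list, which makes up 0.366% of the other genes, so 0 of 6 is no more than the background. For Irf7 and Isg15 it was 3 of 6 each.

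For Stat2 and Mx2 the number was also 0 of 6. Stat2 had its highest named values with RGD1304884, 0.71, with Cs, the citrate synthase gene, 0.71 (rho 0.75), and with Pnpla6, 0.70. Cs lies on the chromosome of Stat2 with 3 protein-coding genes between them. Mx2 had its highest with Kdelc2, 0.72 (rho 0.68), and Jade1, 0.70 (rho 0.66). Ifit2 had 2 of 6 on the list, Oasl2 at 0.69 (rho 0.66) and the RNA-activated kinase gene Eif2ak2 at 0.62. Without libraries 29 and 15 Oasl2 gave 0.62 and Eif2ak2 gave 0.47. Oasl had 0 of 6: Crispld2, Id4 and Slc14a1 each gave 0.61. Oasl and Oasl2 are related, so how their reads were assigned is uncertain. Irf9 had 1 of 6, Usp18, behind Rapgef3 and Fzd4, both at 0.67.

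Cell type markers moved with some of these genes, and their part in the correlations was not tested. All 5 astrocyte markers were detected, with a summed level of 67173 to 94728. The sum had r 0.50 with Irf7, 0.51 with Isg15, 0.45 with Ifit3 and -0.38 with Mx1. The median r of the 5 markers was 0.40, 0.41, 0.17 and -0.12 with these genes. With Irf7, Gfap, Aqp4 and Slc1a3 gave 0.50, 0.42 and 0.40, while Slc1a2 and Aldh1l1 each gave 0.12. The 8 microglial markers, all detected, summed to between 9306 and 13112, with r 0.29 with Irf7 and -0.044 with Mx1. Of 7 endothelial markers 6 were measured, with a sum of 5283 to 8264 and r of 0.36 with Irf7 and -0.47 with Mx1.

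For Mx1 the sums with the largest r were those of other lists. All 6 leptomeningeal markers were detected, with a sum of 1344 to 2172 and r 0.59 with Mx1. The matrix proteoglycan genes Dcn and Lum gave 0.63 and 0.64 (for Dcn, rho 0.52 and 0.44 without libraries 17 and 20). Col1a1, Col3a1, Col1a2 and Igf2 gave 0.18, 0.054, -0.036 and -0.17, and the median r of the 6 was 0.12. The 5 oligodendrocyte markers, all detected, summed to between 120175 and 332021 with r -0.53, and each of the 5 was negative, with a median of -0.46. The 5 markers of dentate granule cells and hippocampal fields, all detected, summed to between 19208 and 33630.2 with r -0.48. Of these, Wfs1, a CA1 marker, gave -0.51 (rho -0.55; -0.58 without libraries 17 and 20), while Prox1, Zbtb20, Dsp and Neurod6 gave 0.093, 0.036, -0.039 and -0.17, and the median was -0.039. The 6 neuronal markers, all detected, had a sum with r 0.34 with Mx1 and a median r of 0.36. Gad1, the GABA-synthesizing enzyme, gave 0.61, and Gad2, Syt1, Snap25 and Slc17a7 gave 0.48, 0.47, 0.24 and 0.044. Rbfox3 alone was negative, at -0.31. The sums of the leptomeningeal and the field lists thus rested on 2 and 1 of their markers, while the oligodendrocyte markers were negative throughout. So were the measured endothelial, astrocyte and red blood cell markers, with median r with Mx1 of -0.41, -0.12 and -0.40. Among the markers, values without libraries 17 and 20 are given for Gfap, Dcn and Wfs1 only. How far the other markers and the sums rested on these libraries was not tested.

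Blood cell genes were low or weakly correlated with Irf7. The 4 measured red blood cell genes summed to between 1732 and 14052, with r -0.0056 with Irf7 and -0.40 with Mx1. For T cells, 6 of 6 markers were in the table, with a sum of 155 to 568 and r 0.56 with Irf9 and 0.35 with Irf7. That sum came from Cd3e and Cd4, while Cd3d, Cd3g, Cd8a and Cd2 had medians of 0.90 to 1.93. The 4 measured neutrophil and monocyte genes summed to between 10.4 and 56.7, and each had a median below 10.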

How the data were processed

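Total RNA of frozen female rat hippocampus was sequenced on Illumina libraries, per the labels' protocols. The authors deposited 1 table with 36 columns of normalized counts, used here as a signal in arbitrary units. Per the submitters' processing notes, kallisto 0.43 and DESeq2 were used, in roles that are not stated. Not given in the sources used here are batches, read depths and the transcriptome used as reference. The table's values are not whole numbers and showed no constant step, so reads and counting error could not be recovered. All 36 columns were used, as 1 ungrouped set: their names give the tissue and no animal, age or cycle status.

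Levels were taken as log2(value + 1). Each gene was described by its lowest, median and highest value and interquartile range, and pairs by Pearson's r and Spearman's rho, with no p-value. Backgrounds used the 15837 of 20603 genes with a median of at least 10. The correlation script was tested on simulated data. The members and gene lists were chosen with earlier results of these data known. Named were the 9 members, the receptor, signalling and sensor genes, the 10 genes of the wider list and the 20 genes of the table with the highest median r. Genes nearest to a single member, and cell type markers named singly, were chosen after their values were seen. No normalization by length was available. Python 3.11.15, numpy 2.4.6, pandas 2.3.3 and scipy 1.17.1 were used. Alternatives were other pseudocounts (0.5 and 5), rank correlation, rescaling by totals or TMM factors, no filter, and libraries left out. The result of 1 listed gene is not reported here.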

Additional observations from a re-analysis of the deposited data

How the results depend on the processing

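The median r of the 9 genes and that of the wider list stayed positive under every alternative. Counts, shares and interquartile ranges cannot be negative, so only their size is compared. Of the 36 single pairs, 3 changed sign with Spearman's rho and 1 without libraries 16, 17 and 30. Without the 2 libraries farthest from the median of the pair's first gene, 3 changed sign. All of these had r within 0.044 of 0, and 0 changed sign with either rescaling. The number of pairs of the 9 genes at r 0.5 was 5 and became 8 without libraries 16, 17 and 30, an alternative chosen after seeing the data; the cause was not tested. It was 7 with Spearman's rho, 4 with the same total per library, 4 without libraries 21 and 5, and 4 to 7 when single libraries were left out. The median r of the 9 genes was 0.12 and ranged from 0.087 to 0.15 under the alternatives and from 0.062 to 0.15 without single libraries. The median r of the wider list was 0.23, with 0.19 for no filter and 0.20 to 0.24 without single libraries. The share of member-to-gene pairs at r 0.5, 0.866%, was 0.694% with no filter and 1.18% with the same total per library. All 36 recomputed interquartile ranges stayed within 0.90 to 1.05 times their value. Rescaling moved the median of a library by at most 0.035 on the log2 scale. No paired analysis was possible because the columns carry no animal, group or pairing. Depth is unknown, so counting error could not be separated from differences between animals, and Isg15 and Oasl had the smallest counts of the 9 genes.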
